A study of Mus musculus with 60 samples.

Results

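The 16 libraries described here are the striatum-like libraries of a mouse brain RNA-Seq study that had the most and the least mRNA of Mobp, a myelin protein gene. Of 60 libraries, 30 were taken as striatum-like because the deposited FPKM of Slc17a7, the vesicular glutamate transporter of cortical excitatory neurons, was 100 or below. Their FPKM were divided by a median-of-ratios factor and the libraries were ranked by the scaled value of Mobp, so that they were chosen by their measured Slc17a7 and Mobp. The 8 highest libraries formed the high-Mobp side, the 8 lowest formed the low-Mobp side, and 14 libraries lay between. Of 60 libraries, the other 30 were cortex-like.

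Myelin is the lipid-rich membrane that oligodendrocytes wrap around axons. Its compacted layers hold small basic proteins such as Mbp and Mobp, while adhesion, junction and cytoskeletal proteins such as Mog, Mag, Cldn11 and Cnp sit on its outer face, in its seams and in its uncompacted loops. In the striatum the myelinated axons run in bundles between projection neurons whose own axons are mostly thin, and these bundles carry fibres that link the cortex, the thalamus and the brainstem.

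All libraries came from mice of strain c57BL-6N aged 3 months, from total RNA depleted of ribosomal RNA and sequenced as directional libraries. The Δ12 allele of Htt, the huntingtin gene, lacks the end of exon 12, and the KO allele arose in a single founder from a failed repair that took away the splice donor of exon 12. KO/+ mice carry the KO allele on 1 copy, Δ12/+ mice carry Δ12 on 1 copy and Δ12/Δ12 mice on both, and +/+ mice of either line carry neither. Of the 30 striatum-like libraries, 24 were labelled as the KO line and 6 as the Δ12 line. All 30 cortex-like libraries were labelled as the Δ12 line, 12 of them +/+, 12 Δ12/+ and 6 Δ12/Δ12. Among the 8 high-Mobp libraries, 5 were labelled +/+, 2 KO/+ and 1 Δ12/Δ12, whereas among the 8 low-Mobp libraries 1 was labelled +/+, 6 KO/+ and 1 Δ12/Δ12. In the high-Mobp libraries 6 were labelled striatum and 2 cortex. In the low-Mobp libraries 1 was labelled striatum and 7 cortex.

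The labels therefore moved with Mobp, and part of them went against the RNA. In all 30 striatum-like libraries 15 were labelled cortex, although their Slc17a7 FPKM reached at most 64.8, against at least 120.8 in the cortex-like libraries. In 13 of the 30 the higher of Xist and Ddx3y, transcripts of the inactive X and of the Y chromosome, went against the labelled sex. Xist was the higher in 6 of the 8 high-Mobp libraries and in 2 of the 8 low-Mobp libraries. Each library keeps its label here. The part of genotype, labelled tissue and sex in the differences cannot be told apart from Mobp where they moved with it. Results with genotype, labelled tissue or the higher of Xist and Ddx3y as a covariate are given beside the gene groups in which several genes were called. The labels of 1 striatum-like library outside the 16 disagree, with the Δ12 line in its title and the KO line in its genotype, and it was kept as KO/+.

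The choice of libraries rests on Mobp. Of the myelin membrane genes Mog, Mal, Cldn11 and Nkain1 also separated the sides without overlap. The RefSeq promoters of the 3 with the smallest adjusted p in GRCm38.p6, from 250 bases before to 50 after the annotated start, are shown with that of Mobp because the results turn on these 4 genes. The windows were Mobp at chr9:120149492-120149791 (+), Mog at chr17:37023349-37023648 (−), Mal at chr2:127656646-127656945 (−) and Cldn11 at chr3:31149670-31149969 (+), each written 5′ to 3′ on the strand of the gene. Capitals mark ACAAAG, letters read by SOX factors, and CTGGCAC or CTGGTAC, letters read by the oligodendrocyte factor MYRF, searched on both strands.
Mobp: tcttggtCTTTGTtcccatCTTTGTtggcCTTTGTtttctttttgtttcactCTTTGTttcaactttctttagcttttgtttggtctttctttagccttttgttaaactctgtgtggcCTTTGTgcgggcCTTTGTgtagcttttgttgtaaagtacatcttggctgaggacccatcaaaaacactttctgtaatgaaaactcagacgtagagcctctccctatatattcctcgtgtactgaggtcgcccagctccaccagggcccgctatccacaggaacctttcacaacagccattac
Mog: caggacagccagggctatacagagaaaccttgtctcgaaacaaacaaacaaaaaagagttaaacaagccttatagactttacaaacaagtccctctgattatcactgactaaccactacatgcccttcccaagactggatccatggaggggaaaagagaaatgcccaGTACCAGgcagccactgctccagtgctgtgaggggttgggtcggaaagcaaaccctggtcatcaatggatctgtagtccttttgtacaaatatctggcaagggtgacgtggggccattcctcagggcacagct
Mal: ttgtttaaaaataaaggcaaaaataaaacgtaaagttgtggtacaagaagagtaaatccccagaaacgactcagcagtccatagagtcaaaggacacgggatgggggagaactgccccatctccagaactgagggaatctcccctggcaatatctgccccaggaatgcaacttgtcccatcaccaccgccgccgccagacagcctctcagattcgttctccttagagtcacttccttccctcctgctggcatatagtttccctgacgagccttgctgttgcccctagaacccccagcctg
Cldn11: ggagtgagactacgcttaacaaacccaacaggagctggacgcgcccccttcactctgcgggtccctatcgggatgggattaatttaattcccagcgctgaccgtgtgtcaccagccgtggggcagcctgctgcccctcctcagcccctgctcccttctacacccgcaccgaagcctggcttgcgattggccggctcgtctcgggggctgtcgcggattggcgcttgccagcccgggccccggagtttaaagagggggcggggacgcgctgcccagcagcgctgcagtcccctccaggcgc

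The window of Mobp held 6 matches to the SOX letters, all on the opposite strand, and the window of Mog held 1 match to the MYRF letters. The windows of Mal and Cldn11 held neither. Of 32851 promoters of this length, 18.7% held the SOX letters and 7.1% the MYRF letters. Of the 29 promoters found for 18 of the 25 genes of the compact myelin and myelin membrane lists, 11 held the SOX letters (37.9%) and 5 the MYRF letters (17.2%).

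Mobp, a small basic protein of compact myelin, ranged in scaled FPKM from 299 through a median of 313 to 347 in the high-Mobp libraries. It ranged from 260 through 272 to 292 in the 14 between, and from 195 through 233 to 251 in the low-Mobp libraries. These values made the sides, so they carry no test. At the upper edge, rank 8 had 299 and rank 9 had 292. At the lower edge, rank 22 had 260 and rank 23 had 251. The highest library had 1.78 times the Mobp of the lowest, and the mean gap between the sides was 0.49 on the log2 scale. By label, Mobp ran from 219 through 292 to 347 in 12 +/+ libraries, from 195 through 255 to 300 in 12 KO/+ libraries and from 244 through 272 to 340 in 6 Δ12/Δ12 libraries.

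Mog, an adhesion protein of the outermost myelin layer, was 31.3 to 45.5 scaled FPKM (median 33.0) in the high-Mobp libraries and 24.1 to 30.1 (median 25.6) in the low-Mobp libraries. The sides did not overlap, but the 14 libraries between reached from 22.7 to 39.4 and so spanned nearly both sides. The difference was 0.42 ± 0.074 (SE, n = 8 and 8) on the log2(scaled FPKM + 0.5) scale, with an adjusted p of 0.0142 by limma. Over the 30 striatum-like libraries, which carry 15 mouse labels, the log2 values of Mobp and Mog had a Pearson correlation of 0.66 and a Spearman correlation of 0.74. The scaled values of both genes share the factor of each library.

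**Figure D1:**
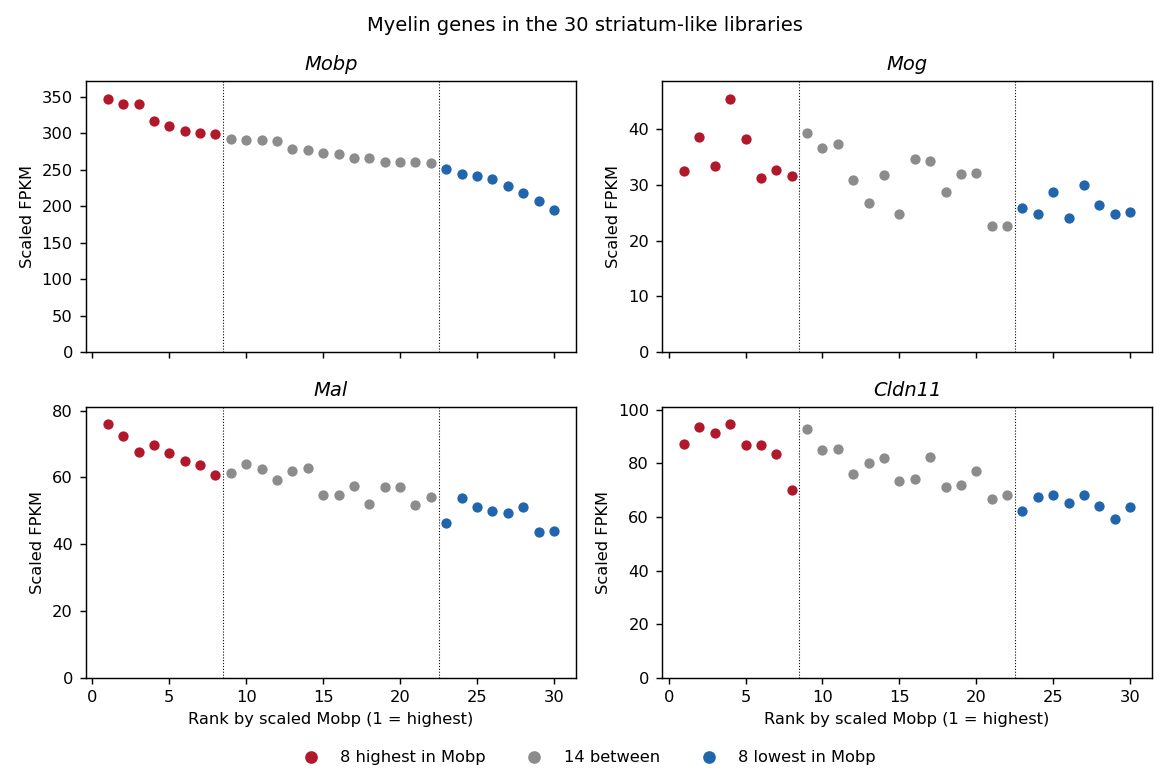
Scaled FPKM of Mobp, Mog, Mal and Cldn11 (vertical axes, from 0) in the 30 striatum-like libraries ordered by Mobp rank (horizontal axis), with the 8 high-Mobp libraries in red, the 14 between in grey and the 8 low-Mobp libraries in blue. Mal falls from 60.7 to 75.9 in the red libraries to 43.7 to 53.8 in the blue ones, while the grey libraries of Mog range from 22.7 to 39.4.

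Across all genes other than Mobp, the high-Mobp and low-Mobp libraries differed in a small share of the transcriptome, mostly upwards. By limma 414 of 15907 genes tested (2.60%) had a Benjamini-Hochberg adjusted p under 0.05, of which 318 rose (2.00%) and 96 fell (0.604%) in the high-Mobp libraries. At an unadjusted p under 0.05 there were 2962 genes (18.6%). Of the called genes, 9 that rose and 3 that fell had a mean under 0.5 scaled FPKM on the other side, and so passed the filter on low values only through the side where they were high. The median difference over all genes tested was −0.02 on the log2 scale. With FPKM as deposited, 459 genes rose and 8 fell, around a median of all genes of 0.09. The 8 and 8 libraries did not overlap in 65 genes (0.409%), of which 54 were higher (0.339%) and 11 lower (0.0692%) in the high-Mobp libraries, and 60 of the 65 were called.

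The count of called genes depended on the labels and on single libraries. It was 4 (0.0251%) with the higher of Xist and Ddx3y as a covariate, 6 (0.0377%) with labelled tissue and 1 (0.00629%) with the labelled KO/+ genotype, all of them higher in the high-Mobp libraries. With Slc17a7 as a covariate it was 78 (0.490%), of which 66 were higher (0.415%). With labelled sex it was 309 of 15907, of which 257 were higher and 52 lower. Within labels, each fit held the striatum-like libraries of 1 label and had log2 Mobp as a continuous term. In the 15 libraries labelled striatum 919 genes were called (5.81%), 459 of them with a positive slope (2.90%), and in the 15 labelled cortex 80 (0.503%), 73 of them positive (0.459%). In the 15 libraries where Xist was the higher 1184 genes were called (7.47%), with a positive slope in 3.32% of the genes tested, and in the 15 where Ddx3y was the higher 253 (1.59%), 211 of them positive (1.33%). Depth, estimated from the deposited interval bounds, ranged from 16.4 to 27.5 M fragments over the 30 libraries. It differed by −0.04 on the log2 scale between the sides (exact two-sided permutation test, p = 0.647). Xist differed by 3.18 on the log2 scale (exact permutation p = 0.0232, adjusted over 7 library values 0.162), and Htt by 0.05 (exact permutation p = 0.467, adjusted 0.545). Since tissue RNA was measured in bulk, fewer cells of a type and less RNA per cell cannot be told apart in any of the differences.

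Genes of the myelin membrane, its paranodal loops and its cytoskeleton mostly rose in the high-Mobp libraries. Of 19 genes of this list tested, 14 rose and 0 fell, all 19 differences were positive, and their median was 0.37 on the log2 scale. Mal, a proteolipid of the myelin lipid rafts, was 60.7 to 75.9 scaled FPKM (median 67.5) in the high-Mobp libraries and 43.7 to 53.8 (median 49.6) in the low-Mobp libraries. The sides did not overlap, and Mal rose by 0.47 ± 0.055 (adjusted p = 0.002), the smallest adjusted p of any gene. Cldn11, the claudin that seals the seams between myelin layers, was 70.0 to 94.6 (median 87.2) against 59.4 to 68.3 (median 64.7). The sides did not overlap here either, with a difference of 0.41 ± 0.056 (adjusted p = 0.00499).

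Mag, the glycoprotein that faces the axon at the innermost layer, was 90.0 to 138 (median 120) against 79.1 to 96.9 (median 84.3), a rise of 0.43 ± 0.083 (adjusted p = 0.0176) with overlapping sides. Nkain1, a partner of the sodium pump, was chosen for mention after its values were seen, since it was the other gene of the list without overlap (adjusted p = 0.0229). Ermn, a cytoskeletal protein of mature oligodendrocytes, rose by 0.44 (adjusted p = 0.026), and Gjc3, a connexin of oligodendrocytes, rose by 0.41 (adjusted p = 0.0146). Ermn was called in 10 of the 16 fits that left out 1 library, while Mal, Mog, Cldn11, Mag and Gjc3 were called in all 16.

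Of the genes listed for compact myelin, Pmp22, Cd9 and Gpm6b did not pass the test. Pmp22, a myelin protein better known from peripheral nerve, was 8.39 to 14.6 (median 12.9) against 7.46 to 12.9 (median 9.79), with an adjusted p of 0.267. Cd9, a tetraspanin, was 18.5 to 23.5 (median 22.4) against 16.2 to 22.7 (median 18.6), with an adjusted p of 0.123. Gpm6b, a membrane glycoprotein that neurons also express, was 173 to 217 (median 194) against 179 to 216 (median 192), with a difference of 0.00 (adjusted p = 0.995). Mbp, whose entry had a status other than OK in part of the libraries, was 891 to 1280 (median 1137) against 736 to 1015 (median 862). In a fit that kept entries of any status its difference was 0.35 ± 0.090 (adjusted p = 0.0436).

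**Figure D2:**
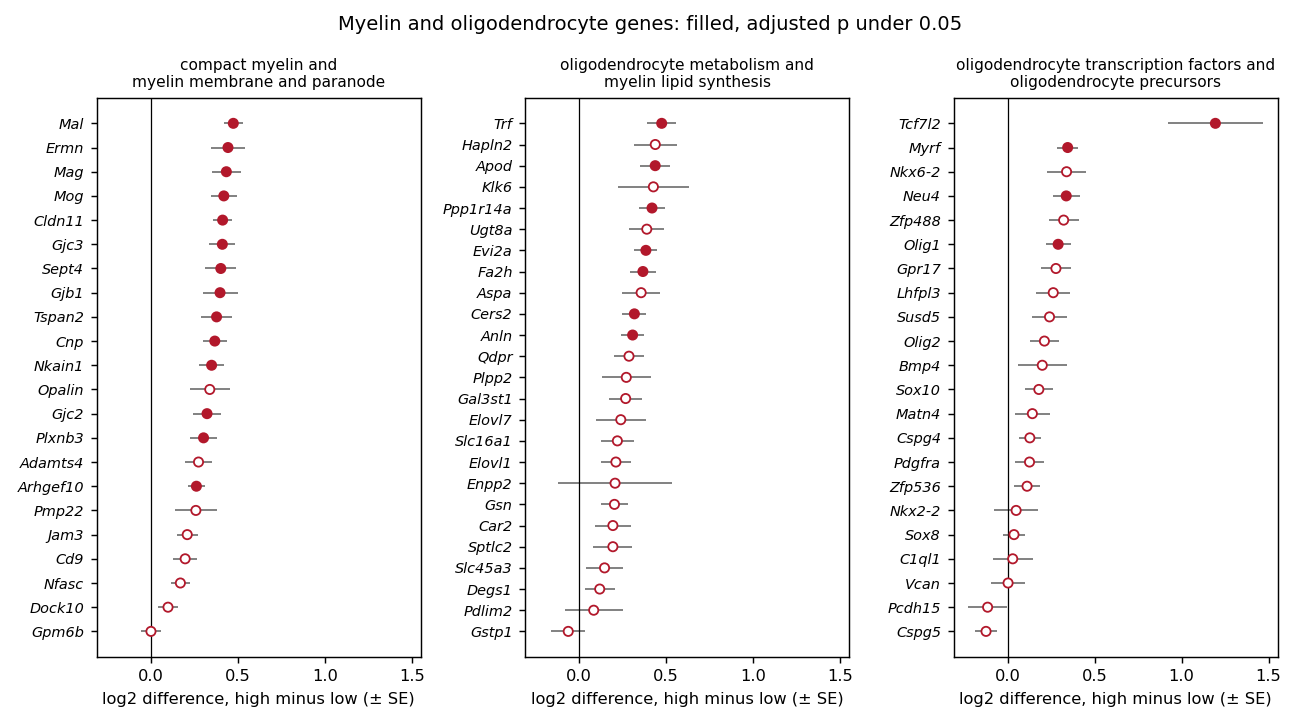
Difference between the high-Mobp and low-Mobp libraries on the log2(scaled FPKM + 0.5) scale (horizontal axis) for genes of 6 oligodendrocyte lists, with bars of 1 SE and filled points for an adjusted p under 0.05. All 19 genes of the myelin membrane list lie above 0 and 14 are filled, while Gpm6b lies at 0.00.

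With 4 covariates tried in turn, part or nearly all of these calls were lost, while the differences stayed positive. Of the 19 membrane genes, 7 were called with Slc17a7 as a covariate, 3 with the higher of Xist and Ddx3y, 1 with labelled tissue and 1 with the KO/+ genotype, and all 19 differences were positive in each of these fits. Their median, 0.37 without a covariate, was 0.36, 0.38, 0.37 and 0.26 in these fits, and the difference of Mog was 0.46, 0.52, 0.39 and 0.39. Within labels, 11 of the 19 had a called positive slope against Mobp under the striatum label and 9 under the cortex label, 15 where Xist was the higher and 10 where Ddx3y was the higher. Mal was called in each of the 4 covariate fits (adjusted p = 0.0143, 0.0271, 0.0425 and 0.015). In libraries where Xist was the higher, Mog averaged 33.4 on the high-Mobp side (n = 6) and 25.4 on the low-Mobp side (n = 2), and where Ddx3y was the higher it averaged 41.9 (n = 2) and 26.6 (n = 6). In libraries labelled KO/+ the means of Mog were 32.2 (n = 2) and 26.5 (n = 6), and in the others 36.6 (n = 6) and 25.6 (n = 2). Mal averaged 62.2 against 47.4 in the KO/+ libraries and 69.6 against 52.5 in the others.

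Genes of enzymes and carriers that mature oligodendrocytes make in abundance rose in part. Of 16 genes tested, 5 rose and 0 fell, with a median of 0.30. Trf, the iron carrier transferrin, was 170 to 244 scaled FPKM (median 226) in the high-Mobp libraries and 137 to 184 (median 151) in the low-Mobp libraries. It rose by 0.47 ± 0.082 (adjusted p = 0.0141), with the sides overlapping through 1 low-Mobp library. Apod, a lipocalin of myelinating cells, rose by 0.44 (adjusted p = 0.0208), Ppp1r14a, an inhibitor of myosin phosphatase, by 0.42 (adjusted p = 0.0154), and Anln, an actin and septin binding protein, by 0.31 (adjusted p = 0.0265). Evi2a, a membrane protein, rose by 0.38 (adjusted p = 0.0141) without overlap between the sides. With Slc17a7, the higher of Xist and Ddx3y, labelled tissue or the KO/+ genotype as a covariate, 3, 0, 0 and 0 of the 16 were called, with medians of 0.26, 0.29, 0.31 and 0.17.

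Among genes of myelin lipid enzymes, 2 of 9 rose and 0 fell, with a median of 0.27. These were Fa2h, which hydroxylates the fatty acids of galactolipids (0.37, adjusted p = 0.0203), and Cers2, which makes ceramides with very long chains (0.32, adjusted p = 0.027). With each of the same 4 covariates 0 of the 9 were called, with medians of 0.25, 0.27, 0.34 and 0.17. Cholesterol is the other main lipid of myelin, and of 22 genes of its synthesis 0 rose, with a median of 0.02.

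Of 10 transcription factor genes of the oligodendrocyte lineage, 3 rose and 0 fell, with a median of 0.25. Myrf, which switches on myelin genes in maturing oligodendrocytes, was 14.4 to 18.9 (median 17.0) against 11.7 to 14.6 (median 12.9) and rose by 0.34 ± 0.060 (adjusted p = 0.0141). Olig1, which is present through most of the lineage, rose by 0.29 (adjusted p = 0.0388) and was called in 4 of 16 fits that left out 1 library. Tcf7l2, a Wnt pathway factor of differentiating oligodendrocytes that thalamic neurons also express, was 2.43 to 13.3 (median 6.09) against 1.38 to 4.64 (median 2.06). Its difference of 1.19 ± 0.27 (adjusted p = 0.0301) was called in 7 of 16 such fits. With the 4 covariates in the same order, 1, 0, 0 and 0 of the 10 were called, with medians of 0.24, 0.23, 0.22 and 0.15.

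Genes of earlier stages of the lineage were listed as well. Of 10 genes of newly formed oligodendrocytes 1 rose, Bcas1, a marker of cells that begin to myelinate (0.47, adjusted p = 0.0135), 5 had an unadjusted p under 0.05, and the median was 0.16. Of 12 genes of oligodendrocyte precursors 1 rose, Neu4, a sialidase (0.34, adjusted p = 0.0302), 4 had an unadjusted p under 0.05, and the median was 0.13. Neither list held a gene that fell. Of all genes tested, 2.00% rose and 18.6% had an unadjusted p under 0.05. Bcas1 was called in all 16 fits that left out 1 library, and Neu4 in 7. With Slc17a7 as a covariate Bcas1 was called (adjusted p = 0.0425) and Neu4 was not (adjusted p = 0.0852). With the higher of Xist and Ddx3y, labelled tissue or the KO/+ genotype neither was called.

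Genes of thalamic and other subcortical neurons rose in the high-Mobp libraries. Of 8 tested, 6 rose and 0 fell, with a median of 1.03, and 1 that was not called, Gbx1, passed the filter on low values only through the high-Mobp side. Prkcd, a protein kinase C abundant in thalamic relay neurons, was 8.98 to 70.4 scaled FPKM (median 37.2) in the high-Mobp libraries and 2.26 to 12.8 (median 6.91) in the low-Mobp libraries. The sides overlapped, and the difference was 2.12 ± 0.38 (adjusted p = 0.0142), a 4.35-fold rise on the log2(scaled FPKM + 0.5) scale. Slc17a6, the vesicular glutamate transporter of subcortical neurons, was 1.42 to 16.1 (median 8.80) against 0.266 to 3.12 (median 1.58). Its sides overlapped too, with a difference of 1.87 ± 0.41 (adjusted p = 0.0269).

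Tnnt1, a troponin expressed in thalamic neurons, was 1.38 to 9.49 (median 4.90) against 0.479 to 2.69 (median 0.905) and rose by 1.69 ± 0.30 (adjusted p = 0.0141). Ramp3, a receptor activity modifying protein, rose by 1.18 (adjusted p = 0.0203), Zic1, a zinc finger factor, by 0.88 (adjusted p = 0.0352) and Slc6a11, a GABA transporter, by 0.81 (adjusted p = 0.0208). Shox2, a homeobox factor of thalamic neurons that is outside the list and was named after its values were seen, rose by 1.95 (adjusted p = 0.0135). Prkcd and Tnnt1 were called in all 16 fits that left out 1 library, Slc17a6 in 10 and Zic1 in 4. The summed level of the 8 genes was 46.1 to 183 (median 112) on the high-Mobp side, 35.7 to 126 (median 66.7) in the 14 libraries between and 28.4 to 59.6 (median 38.2) on the low-Mobp side. With Slc17a7 as a covariate 2 of the 8 were called, and with the higher of Xist and Ddx3y, labelled tissue or the KO/+ genotype 0 were called, while all 8 differences were positive in each fit. In these 4 fits the difference of Prkcd was 2.14, 2.29, 2.18 and 1.58, and that of Tnnt1 was 1.70, 1.77, 1.85 and 1.34. Within labels, 7 had a called positive slope under the striatum label and 1 under the cortex label, 7 where Xist was the higher and 3 where Ddx3y was the higher. Prkcd averaged 13.2 (n = 2) against 6.97 (n = 6) in the KO/+ libraries and 44.1 (n = 6) against 9.28 (n = 2) in the others.

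Peptide genes of hypothalamic neurons reached high levels in part of the high-Mobp libraries. Of 7 that passed the filter, Pmch, Hcrt, Oxt and Gal did so only through the high-Mobp side, so their differences are descriptions and no count or median of the list is read. Pmch, the precursor of melanin-concentrating hormone, was 0 to 58.5 (median 16.7) in the high-Mobp libraries and 0 to 0.393 (median 0.113) in the low-Mobp libraries. It was at 9.39 or above in the 6 libraries of ranks 1 to 6 and below 1 in ranks 7 and 8, the last of which was listed at 0, so the sides overlapped. Trh, the precursor of thyrotropin-releasing hormone, rose by 0.58 (adjusted p = 0.0333). Avp, the precursor of vasopressin, had a difference of 2.39 (adjusted p = 0.068). The summed level of the list was 3.2 to 144 (median 42.1) on the high-Mobp side and 2.8 to 5.4 (median 3.7) on the low-Mobp side. Pmch, Hcrt, Oxt and Gal enter this sum, so it too is a description and no support. In the KO/+ libraries Pmch averaged 0.124 (n = 2) against 0.091 (n = 6), and in the others 28.9 (n = 6) against 0.30 (n = 2). With each of the 4 covariates Trh was not called.

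**Figure D3:**
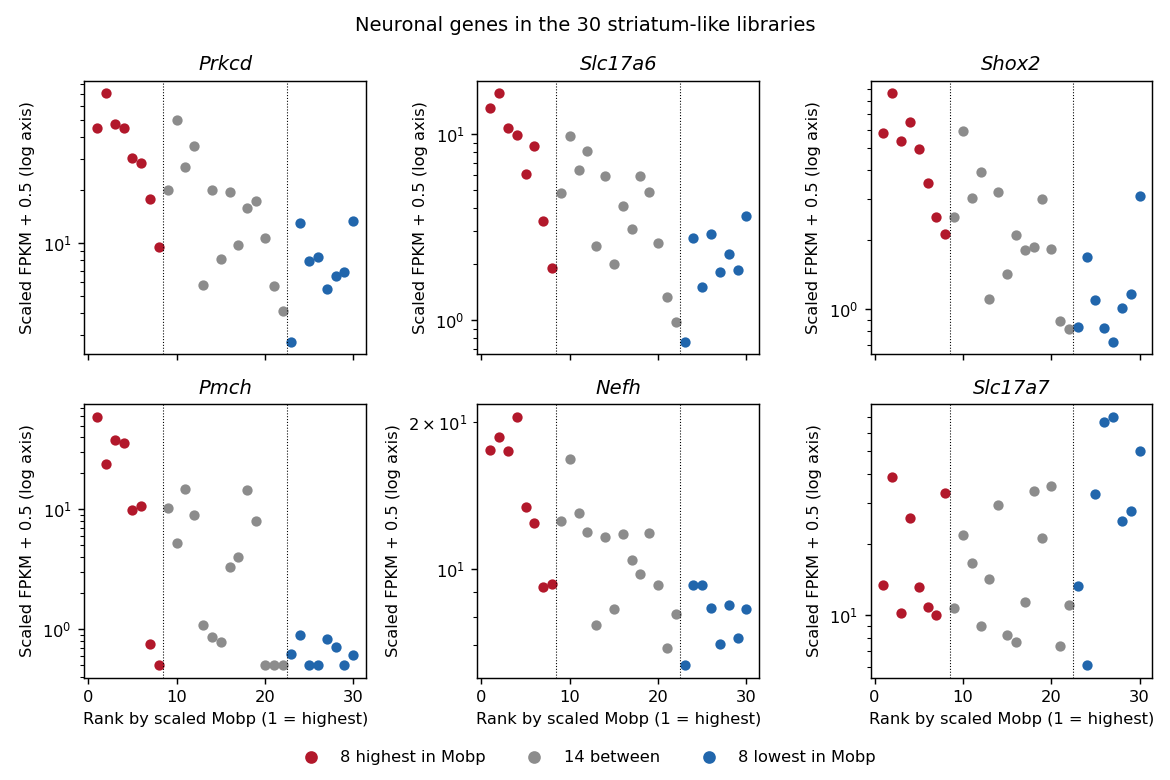
Scaled FPKM + 0.5 (vertical axes, log scale) of Prkcd, Slc17a6, Shox2, Pmch, Nefh and Slc17a7 in the 30 striatum-like libraries ordered by Mobp rank, with high-Mobp libraries in red, those between in grey and low-Mobp libraries in blue. Prkcd reaches 70.4 among the red libraries and 12.8 among the blue ones, whereas Slc17a7 reaches 38.5 and 69.6.

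Axonal genes rose in part. Of 17 genes of neurofilaments, the axon initial segment and the nodes, 4 rose and 0 fell, with a median of 0.07. Nefh, the heavy neurofilament of large axons, was 8.69 to 20.0 (median 15.0) against 5.87 to 8.78 (median 7.81). The sides overlapped only between 8.69 and 8.78, and it rose by 0.83 ± 0.16 (adjusted p = 0.0176). The others were Scn1a, a sodium channel of initial segments (0.39, adjusted p = 0.0413), Cntn2, an adhesion protein of the juxtaparanode (0.27, adjusted p = 0.0392), and Kcna2, the potassium channel beside it (0.24, adjusted p = 0.0259). Of 13 genes of striatal interneurons 1 rose, Pvalb, a calcium-binding protein that other regions also express, at 16.2 to 46.1 (median 34.3) against 12.5 to 27.7 (median 18.3). Its difference of 0.83 ± 0.19 (adjusted p = 0.0311) was called in 5 of 16 fits that left out 1 library, and the list had a median of −0.09. With the 4 covariates in the order above, 1, 0, 0 and 0 of the 17 axonal genes were called, and the difference of Nefh was 0.85, 0.93, 0.71 and 0.58.

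Genes of striatal projection neurons, which make up most neurons of the region, were expressed in all 16 libraries and lay lower on the high-Mobp side without passing the test. All 18 genes shared by these neurons had negative differences with a median of −0.26, as had all 7 genes of the direct pathway (median −0.20) and all 6 of the indirect pathway (median −0.23). By limma 0 of the 3 lists' genes were called, while 12 of the 18, 2 of the 7 and 3 of the 6 had an unadjusted p under 0.05, against 18.6% of all genes. Ppp1r1b, the dopamine-regulated phosphatase inhibitor DARPP-32, was 345 to 567 (median 429) against 422 to 729 (median 528), a difference of −0.33 (adjusted p = 0.136). Foxp1, a transcription factor of these neurons, had a difference of −0.41 (adjusted p = 0.0534), and Drd1 and Drd2, the dopamine receptors of the direct and the indirect pathway, had −0.22 (adjusted p = 0.324) and −0.25 (adjusted p = 0.291). Of 6 genes of the ventral and medial striatum 0 were called and 0 had an unadjusted p under 0.05, with a median of 0.15.

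Genes of cortical excitatory neurons had a median of −0.88 over 10 genes, of which 2 passed the filter on low values only through the low-Mobp side. Of the 10 differences 8 were negative, 8 had an unadjusted p under 0.05 (18.6% of all genes) and 1 was called. The called gene was Rorb, a nuclear receptor of layer 4 that thalamic neurons also express, and it rose by 0.37 (adjusted p = 0.0229). Slc17a7, which set the limit for striatum-like libraries, was 9.5 to 38.5 (median 12.8) against 5.6 to 69.6 (median 29.9), with a difference of −0.76 that carries no test. The part of these genes in the myelin differences was not tested beyond the fit with Slc17a7 as a covariate.

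Astrocyte genes rose in part, 7 of 17, with 0 that fell and a median of 0.25. Agt, the angiotensin precursor that subcortical astrocytes make, was 8.96 to 27.1 (median 23.6) against 6.03 to 13.5 (median 7.89) and rose by 1.13 ± 0.23 (adjusted p = 0.021) with overlapping sides. Aqp4, the water channel of end-feet, rose by 0.60 (adjusted p = 0.0272), and Gja1, the main astrocyte connexin, by 0.36 (adjusted p = 0.0302). Gfap, the intermediate filament, had a difference of 0.47 (adjusted p = 0.258) and Slc1a2, the main glutamate transporter, −0.16 (adjusted p = 0.274). With Slc17a7, the higher of Xist and Ddx3y, labelled tissue or the KO/+ genotype as a covariate 0 of the 17 were called, with 12 or 13 positive in each fit and medians of 0.24, 0.21, 0.13 and 0.20.

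Lists of other cell types held 0 or 1 called genes each, against 2.60% of all genes called and 18.6% at an unadjusted p under 0.05. By limma 0 of 15 microglial genes were called (median 0.02, 1 at an unadjusted p under 0.05), 0 of 10 choroid plexus genes (median 0.14, 0 at that level), 0 of 8 neuroblast genes (median −0.13, 2 at that level) and 0 of 13 mitochondrial genes (median −0.00, 1 at that level). Of 14 vessel genes 1 rose, Ly6c1, a surface protein of endothelial cells (0.29, adjusted p = 0.0408). Of 7 meningeal genes 1 rose, Ptgds, the prostaglandin D synthase that oligodendrocytes also make, at 187 to 319 (median 200) against 119 to 183 (median 147), without overlap (0.57 ± 0.12, adjusted p = 0.0239). Of 8 ependymal genes 1 fell, Tmem212 (−0.52, adjusted p = 0.0284). Of 12 immediate early genes 11 differences were negative (median −0.37), 6 had an unadjusted p under 0.05 and 1 fell, Npas4, a factor induced by neuronal activity, at 1.71 to 3.57 (median 2.26) against 3.07 to 5.74 (median 4.25) with a difference of −0.70 ± 0.13 (adjusted p = 0.0176).

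**Figure D4:**
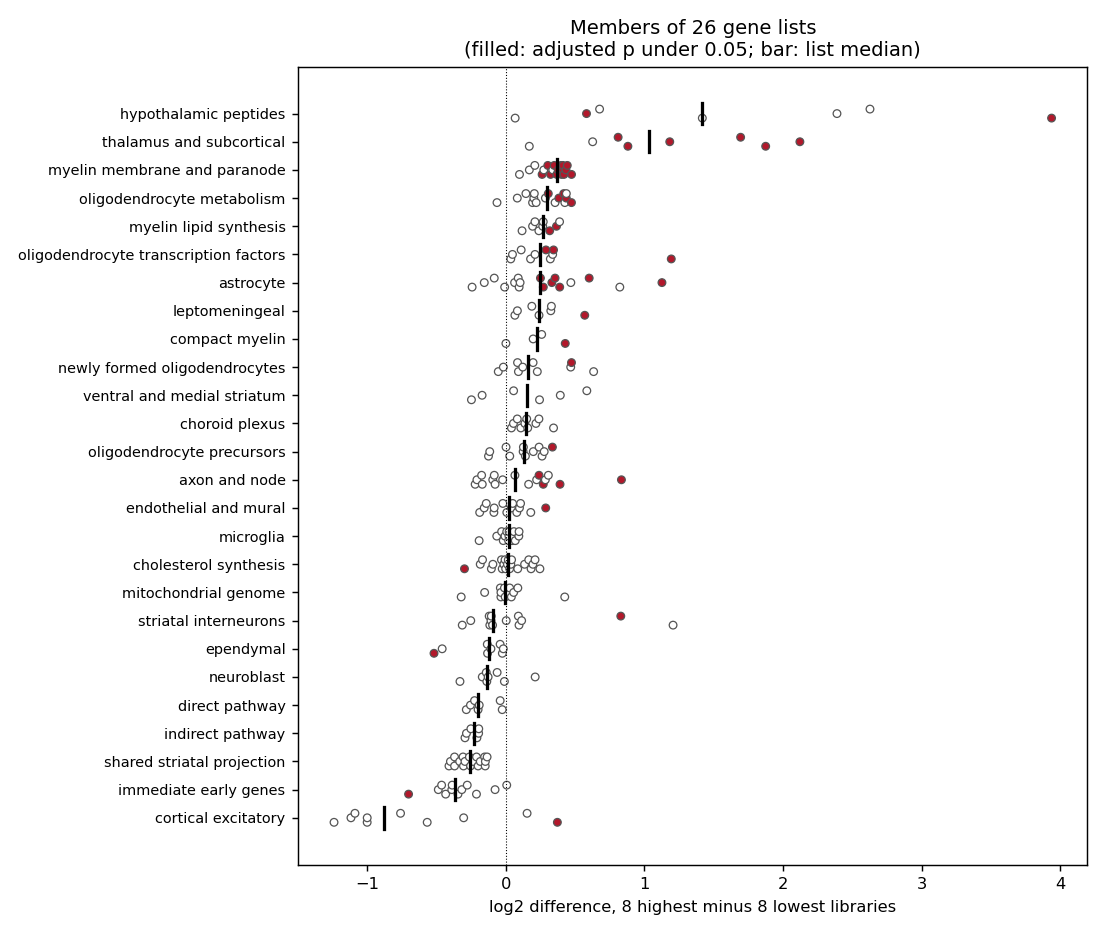
Difference between high-Mobp and low-Mobp libraries on the log2(scaled FPKM + 0.5) scale (horizontal axis) for each tested member of 26 gene lists (rows), filled where the adjusted p is under 0.05, with a bar at the median of each list. The thalamic and subcortical list has its median at 1.03 and the myelin membrane list at 0.37, while the shared striatal projection list has all members below 0 and none filled.

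Outside the lists, the 12 genes with a regular symbol and the largest rises among those called without overlap were varied in function. Rasd1, a small G protein induced by dexamethasone, was 2.13 to 7.66 (median 3.86) against 1.08 to 1.70 (median 1.31) and rose by 1.28 ± 0.18 (adjusted p = 0.00499). It was followed by Plekhd1 (0.92), Wnt3, a secreted Wnt ligand (0.70), Ptpn4, a tyrosine phosphatase (0.64), and Tsc22d3, a factor induced by glucocorticoids (0.61, adjusted p = 0.00997). Etnppl, the phosphoethanolamine lyase of astrocytes, was 4.68 to 6.83 (median 5.74) against 3.37 to 4.35 (median 3.73) and rose by 0.55 ± 0.072 (adjusted p = 0.00499). Kitl, the ligand of the Kit receptor (0.48), Pygm, a glycogen phosphorylase (0.47), Fryl (0.44), Klhl4 (0.42), Hrsp12 (0.42) and Paqr8 (0.42) completed the 12, with adjusted p from 0.0135 to 0.0176 for those not given.

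All 8 genes outside the lists that fell without overlap and had a regular symbol changed by less than 0.5 on the log2 scale. Bcl11a, a transcription factor of striatal and cortical projection neurons, was 8.91 to 14.1 (median 11.1) in the high-Mobp libraries against 14.2 to 16.1 (median 15.1) in the low-Mobp libraries, a difference of −0.42 ± 0.080 (adjusted p = 0.0176). The others were Clcc1 (−0.40), Dok5 (−0.37), Snx11 (−0.30), Mbd5 (−0.23), Tcf4, a basic helix-loop-helix factor (−0.22), Fam160a2 (−0.20) and Otud7a (−0.18), with adjusted p from 0.0141 to 0.03. Of these 8, Bcl11a, Clcc1 and Snx11 were called in all 16 fits that left out 1 library.

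The 14 libraries between played no part in the choice of genes, so they were used to look at the called genes again, although their Mobp spanned only 0.17 on the log2 scale. By limma 0 of 15783 genes were called against log2 Mobp (0%), with 1236 at an unadjusted p under 0.05 and a smallest adjusted p of 0.176. Of the 315 genes that rose in the high-Mobp libraries and were tested here, 294 had a positive slope (93.3%), against 48.1% of 15521 genes tested in both. Of the 95 genes that fell, 14 had a positive slope (14.7%). Among the genes that rose, 171 had a positive slope at an unadjusted p under 0.05 and 0 a negative one. Of the 15521 genes, 673 had a positive slope at that level and 550 a negative one. These libraries share their scaling and their labels' imbalance with the 16, and genes are not independent replicates. The 14 libraries carry 12 mouse labels, and most of the 14 share their mouse label with a library of the 16. The slopes therefore cannot be read as coming from other animals.

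By gene group, all 19 myelin membrane genes had positive slopes in the 14 libraries, 10 of them at an unadjusted p under 0.05. All 8 thalamic and subcortical genes had positive slopes, 7 of them at that level. Of the 15521 genes tested in both comparisons, 673 had a positive slope at that level. Mal had a slope of 1.20 ± 0.32 per log2 unit of Mobp (unadjusted p = 0.00205 by limma), Cldn11 of 1.59 ± 0.39 (unadjusted p = 0.00113) and Prkcd of 11.14 ± 3.08 (unadjusted p = 0.00262). All 18 shared striatal projection genes had negative slopes. Npas4, which fell in the high-Mobp libraries, had a slope of 2.26 ± 1.51, and Tsc22d3, which rose, had 0.07 ± 0.97.

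**Figure D5:**
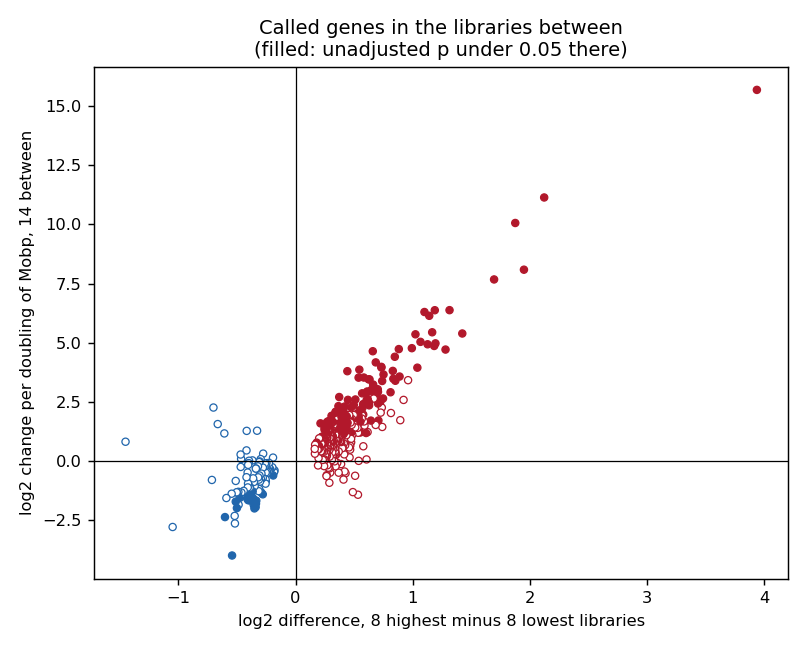
Called genes by their difference between high-Mobp and low-Mobp libraries (horizontal axis, log2 scale) and by their slope against log2 Mobp in the 14 libraries between (vertical axis, log2 change per log2 unit of Mobp), filled where the unadjusted p of the slope is under 0.05. Of the genes that rose, 294 of 315 lie above 0.

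Cortex-like libraries, all labelled as the Δ12 line, gave a different set of values when ranked by Mobp in the same way. Their Mobp was lower, at 41.7 to 132.7, and the 8 highest and 8 lowest lay 0.88 apart on the log2 scale, with 761 of 15984 genes called (4.76%), 364 higher (2.28%) and 397 lower (2.48%). By label the 8 highest held 2 +/+, 5 Δ12/+ and 1 Δ12/Δ12 libraries, and the 8 lowest held 5, 2 and 1. Labelled males were 7 against 3, and Xist was the higher in 3 against 6. Of the myelin membrane list 5 genes were called in this comparison, with a median of 0.16, and of the 7 thalamic and subcortical genes tested there 0, with a median of 0.01. The difference of the differences was called for 50 of 15984 genes (0.313%), 2096 having an unadjusted p under 0.05. Labelled line and genotype also differed between striatum-like and cortex-like libraries, and their part in it cannot be told apart.

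The gene with the smallest adjusted p was Nrip3, a nuclear receptor interacting protein. In the striatum-like libraries it was 8.71 to 20.6 (median 16.7) on the high-Mobp side against 4.86 to 9.14 (median 7.63) on the low-Mobp side, a rise of 0.99. In the cortex-like libraries its difference was −0.49, which gives a difference of the differences of 1.48 (adjusted p = 0.00103). St8sia1, the sialyltransferase that makes ganglioside GD3, rose by 0.50 in the striatum-like libraries against −0.34 in the cortex-like ones (adjusted p of the difference 0.00913). Mog, with 0.42 against −0.17, had an adjusted p of 0.0735 for this difference, Prkcd 0.137, and Mal, with 0.47 against 0.44, had 0.924.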

How the data were processed

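Brain RNA was sequenced by the authors as directional libraries after depletion of ribosomal RNA. The submitters' processing notes name bcl2fastq 2.20, Trimmomatic 0.30, TopHat2 2.0.14, SAMtools 1.3, HTSeq 0.6.1p1 and the build GRCm38.p4, without their roles. The authors deposited 1 table of FPKM per library, normalised for gene length and library size. The annotation release is not given in the sources used here, and the tables hold no counts. The 47574 entries with a status of OK in all libraries were used, and the bounds of the deposited intervals gave the depth, over genes with 1 transcript.

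FPKM were divided by the median ratio of a library's genes to their geometric mean over the 60 libraries. Genes with a mean scaled FPKM of at least 0.5 were tested on log2(scaled FPKM + 0.5) with limma 3.58.1 in R 4.3.3 (trended eBayes), Mobp left out, and called at a Benjamini-Hochberg adjusted p under 0.05. Every adjusted p of a gene is of this kind. Fold changes on this scale understate those of low genes. The slope against Mobp in the 14 libraries between and the difference of the differences from the cortex-like libraries were fitted the same way. The 7 library values were compared by exact permutation tests in scipy 1.17.1.

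The members and the 26 gene lists were chosen with earlier results of these data known. Named are Mobp and Mog, the compact myelin genes, up to 6 called genes per list with the largest difference, up to 12 genes outside the lists in each direction called without overlap, and up to 6 genes called for the difference from the cortex-like libraries. Other genes were named after their values were seen, and a few genes that the rule takes are not reported here. Samples keep the groups of their labels, and p-values measure the spread between these libraries, of which part may come from the same mouse. Alternatives were another scaling, ranking, number of libraries, covariate, pseudocount, filter, weighting or threshold, a replicate block, and each library left out in turn. The script was tested on simulated data.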

Additional observations from a re-analysis of the deposited data

Results flagged for a closer look

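Among 162 groups of 8 values, 6 held a library far from the other 7 (3.70%), where chance gives about 1 in 20. In the high-Mobp libraries, Cldn11 was 70.0 scaled FPKM in the library of Mobp rank 8, and Hrsp12 was 17.9 in that of rank 1. In the low-Mobp libraries, Trf was 184 in the library of rank 23, Wnt3 was 1.01 in that of rank 30, and Snx11 was 9.30 in that of rank 29. In the low-Mobp library of rank 25, the 10 highest entries held 29.6% of the summed FPKM of entries with OK status, less than in the other low-Mobp libraries.

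The difference between high-Mobp and low-Mobp libraries itself differed between striatum-like and cortex-like libraries, by the interaction term in limma, for 50 genes. These kinds of libraries also differed in labelled line and genotype, whose part cannot be told apart. The smallest adjusted p was that of Nrip3, with a difference of the differences of 1.48 on the log2 scale, followed by Dennd5b, a regulator of vesicle traffic, with 0.78 (adjusted p = 0.00153). Dennd5b differed by 0.00 in the striatum-like and by −0.77 in the cortex-like libraries. Eif2s3x, an X-linked translation factor that escapes X inactivation, had 1.04, Arid5b 0.79, Slc35e2 0.44 and St8sia1 0.84, all with an adjusted p of 0.00913. Xist differed by 3.18 in the striatum-like and by −1.67 in the cortex-like libraries, and its part in the interaction of Eif2s3x was not tested.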

How the results depend on the processing

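The 414 called genes became 626 when libraries were ranked by scaled Mog, which shares 3 of 8 high and 5 of 8 low libraries, 1309 with 6 against 6 libraries, 876 with 10 against 10 and 1626 with Mobp as a continuous term over all 30. They became 78 with Slc17a7, 4 with the higher of Xist and Ddx3y and 6 with labelled tissue as a covariate, 230 without the filter on low values, 764 with array weights and 6 at an adjusted p under 0.01. With the replicate block, 167 genes were called. It was 309 with labelled sex as a covariate and 418 with the labelled mouse as a random block. The labels' numbers did not pair the samples, since the deviations of 8 pairs with the same labelled sex and number had correlations of −0.07 to 0.14. Leaving out 1 library gave 75 to 1009 genes. It was 1009 without rank 8, and 107, 135, 75, 138 and 247 without ranks 1, 2, 3, 4 and 6 of the high-Mobp side, and 212, 226, 265, 156 and 160 without ranks 23, 25, 26, 27 and 29 of the low-Mobp side. Alternatives chosen after seeing the data gave 1 gene with the KO/+ genotype as a covariate and 0 with Slc17a7 and the higher of Xist and Ddx3y together (2534 at an unadjusted p under 0.05, by limma). With Mobp as a continuous term they gave 919 genes under the striatum label, 80 under the cortex label, 1184 where Xist and 253 where Ddx3y was the higher. With only the 4 high and 7 low libraries whose Xist and Ddx3y go with the labelled sex, they gave 18. With FPKM as deposited, 7168 genes were called in the 14 libraries between, where Mobp then carries each library's scale, and 12 in place of 50 for the difference from the cortex-like libraries, which became 365 with Mobp as a continuous term. Of the 66 called genes that the naming rule takes, 0 changed direction under any alternative. They were picked as called in these same libraries, which most alternatives share, so the kept direction is no separate support. Not called were 61 of the 66 with labelled tissue, 62 with the higher of Xist and Ddx3y and 65 with the KO/+ genotype as a covariate. With Slc17a7 and the higher of Xist and Ddx3y together, all 66 were not called. FPKM without counts limit what can be said of low genes.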

Other observations

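In the 14 libraries between, genes of the choroid plexus, the secretory epithelium of the ventricles, had negative slopes against Mobp that did not pass the adjusted test. All 10 had negative slopes with a median of −8.67 per log2 unit of Mobp, and 9 had an unadjusted p under 0.05 by limma. Of the 15521 genes tested in both comparisons, 550 had a negative slope at that level. Between the high-Mobp and low-Mobp libraries the same 10 genes had a median difference of 0.14 and 0 were called. Ttr, the transthyretin that this epithelium secretes in bulk, was 318 to 2025 scaled FPKM (median 944) on the high-Mobp side and 176 to 1884 (median 1321) on the low-Mobp side. Ependymal genes, of cells that line the ventricles, also had 0 of 8 positive slopes in the 14 libraries.

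Among the cortex-like libraries, Mog did not follow Mobp. Its median was 42.6 scaled FPKM in the 8 libraries with the highest Mobp and 46.9 in the 8 with the lowest (difference −0.17, adjusted p = 0.414 by limma).

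A few genes outside the lists were called with labelled tissue as a covariate, namely Ddt, Etnppl, Kitl, Rasd1 and Tsc22d3 beside Mal. With the higher of Xist and Ddx3y as a covariate the 4 called genes were Cldn11, Etnppl, Mal and Mog.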
